A study of Homo sapiens with 9 samples.

Results

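The genes described here are 9 genes of fibroblast growth factor (FGF) signalling in the human colorectal cancer cell line LIM1215. They are the receptors FGFR1, FGFR2, FGFR3 and FGFR4, the ligands FGF2, FGF9 and FGF19, the carrier protein FGFBP1 and the adaptor FRS2. Each was found by its symbol in the deposited gene counts, so that 9 of 58920 listed genes are members, and 8 of them are among the 19102 genes that reached 10 counts over all libraries and were tested. FGF2 is the member that did not. LIM1215 is a RAS wild-type line with microsatellite instability. The 3 lines were sequenced as 3 libraries each. LIM1215-parental (group label Parental) was grown in parallel without drug. LIM1215-R1 and LIM1215-R2 (labels Resistant_1 and Resistant_2, here R1 and R2) were derived independently from it by months of culture in rising concentrations of cetuximab, an antibody that blocks the EGF receptor (EGFR). Both resistant lines are mixed, non-clonal populations, described by the study as holding subpopulations with HRAS mutations. RNA of all 3 lines came from cells in basal culture. The libraries of a line are called technical replicates by the study, so that each p-value below measures the spread between libraries of 1 culture history and not between independently derived lines.

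FGFs are secreted proteins that bind receptor tyrosine kinases, mostly together with heparan sulfate chains on the cell surface. The activated receptor phosphorylates the membrane-anchored adaptor FRS2, which recruits GRB2, SOS and GAB1 and leads to RAS-MAPK and PI3K signalling, while PLCG1 binds the receptor directly. Sprouty and SPRED proteins, IL17RD (also called SEF) and the ERK phosphatase DUSP6 are induced by and act back on this pathway. FGF19 is a hormone rather than a local factor: it is made in the ileum on stimulation of the bile acid receptor FXR (gene NR1H4), and signals through FGFR4 with the co-receptor beta-Klotho (KLB). FGFBP1 releases FGFs from the matrix and presents them to receptors.

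The libraries held 13737416 to 18725014 counts in genes. As a check of the cell type, 9 of 10 markers of colorectal epithelium had counts (EPCAM, CDH1, KRT8, KRT18, KRT19, CDX1, CDX2, VIL1 and CDH17), with summed levels of 12863 to 16528 CPM (counts scaled to library size) in a library, and the differentiation marker KRT20 was at 0 in all 9 libraries. Of 4 leukocyte markers, PTPRC, CD3E and MS4A1 were at 0, and CD68, also a lysosomal protein of other cells, had means of 8.29 CPM in parental cells, 13.4 in R1 and 9.79 in R2 and was called higher in R1 (log2 fold change 0.70, edgeR adjusted p = 9.24e-05). Of 4 endothelial markers, KDR was at 0, and PECAM1 had 15 reads in parental libraries and 0 in the resistant ones, called lower in both (edgeR adjusted p = 0.00795 and 0.00888). Fibroblast COL1A2 and PDGFRA were at 0 as well, and the 7 fibroblast markers summed to 2.46 to 3.19 CPM in parental libraries, 1.63 to 1.72 in R1 and 1.19 to 1.61 in R2. In bulk RNA, fewer cells of a kind with a transcript and less of it per cell cannot be told apart.

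Of the 8 members tested, 6 differed between R1 and parental cells at an adjusted p of at most 0.01 (edgeR quasi-likelihood test, Benjamini-Hochberg over all genes tested), where 27.3% of all genes did. FGFR1, FGFR3, FGFR4 and FGF9 were lower (4 members, 13.4% of all genes) and FGF19 and FGFBP1 were higher (2 members, 14.0% of all genes). In R2, 5 members differed from parental, against 23.8% of all genes. The same 4 members were lower (11.6% of all genes) and FGFBP1 was higher (12.3% of all genes). Members that also passed an absolute log2 fold change of 1.5, the threshold for a differentially expressed gene (DEG), were the low-count ligands FGF9 and FGF19 in R1 (2 members, 5.14% of all genes) and FGF9 in R2 (1 member, 4.82% of all genes). With fold changes shrunken by DESeq2 (lfcShrink), the procedure named in the methods of the study, no member was a DEG in either line, with FGF9 at -0.63 and -0.70 and FGF19 at 1.01 in R1, and none was with a filter of 10 counts in every library. Directly between the resistant lines, FGFR1 and FGF19 differed (2 members, 7.16% of all genes), of which FGF19 was a DEG (0.764% of all genes). The median log2 fold change of the 8 members was -0.27 in R1 and -0.22 in R2, beside -0.01 and 0.00 over all genes tested. Both comparisons use the same parental libraries.

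**Figure D1:**
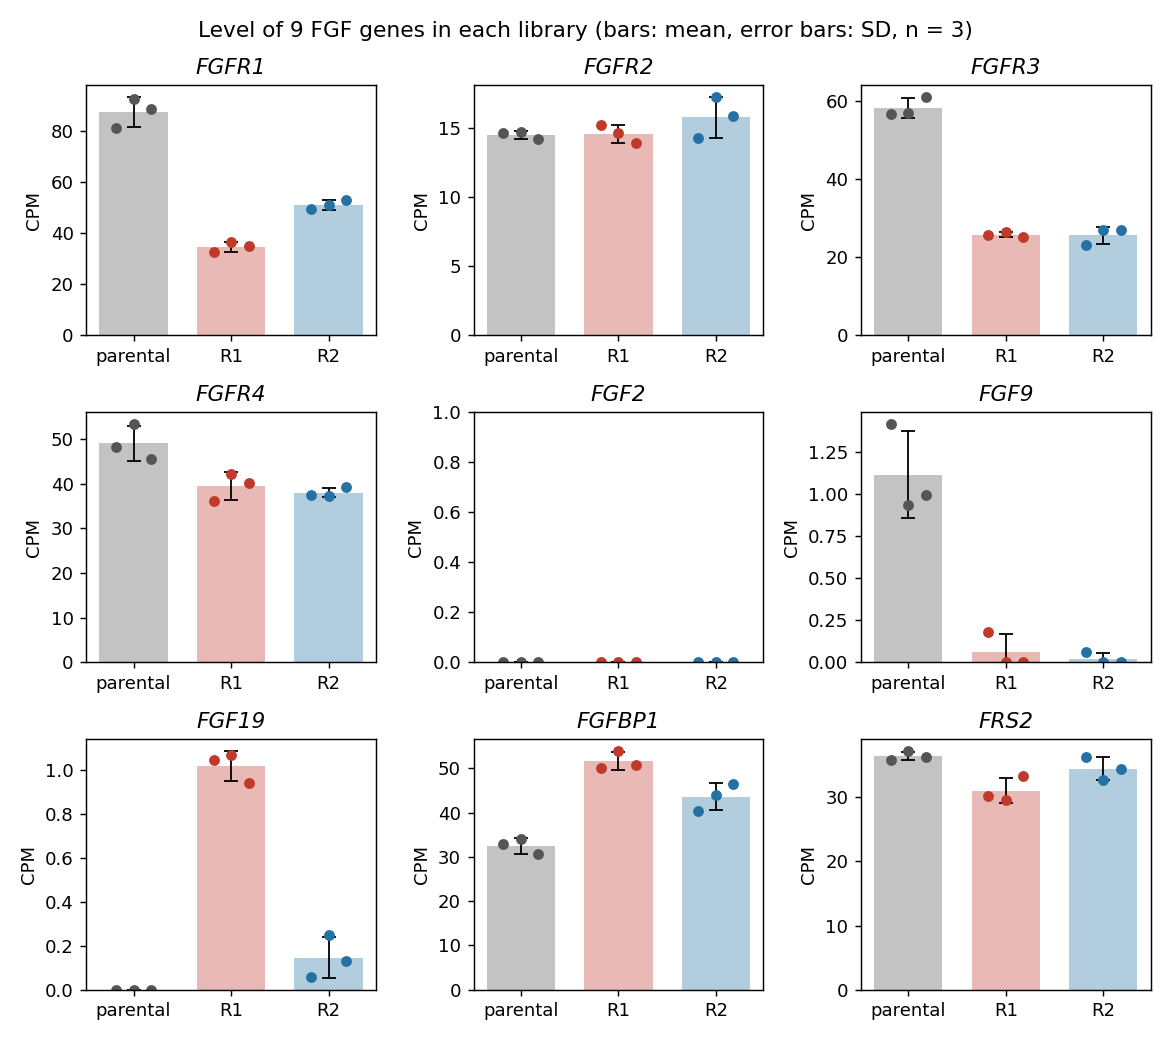
Level of each member in each of the 9 libraries, in CPM on axes that start at 0 and differ between panels. Points are libraries, bars are means and error bars are SD (n = 3). FGFR1, FGFR3, FGFR4 and FGF9 lie lower in both resistant lines than in parental cells, FGFBP1 lies higher, FGF19 has counts in the resistant lines only, and FGF2 is at 0 throughout.

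FGFR3 and FGFR4, which fell in both resistant lines, and FGFBP1, which rose in both, are shown with the 250 bases before their RefSeq start (build GRCh38.p14, written 5′ to 3′ on the gene's strand). They are the members called in the same direction in both lines for which a promoter sequence was matched. FGFR1 and FGF9 were also called lower in both lines but had no matched promoter sequence. Capitals mark matches to GGGCGG and CCAAT on either strand. FGFR3 lies on the forward strand of chromosome 4 from 1793293 to 1808867, and its window is chr4:1793043-1793292. FGFR4 lies on the forward strand of chromosome 5 from 177086915 to 177098144, and its window is chr5:177086665-177086914. FGFBP1 lies on the reverse strand of chromosome 4 from 15935577 to 15938740, and its window is chr4:15938741-15938990.
FGFR3: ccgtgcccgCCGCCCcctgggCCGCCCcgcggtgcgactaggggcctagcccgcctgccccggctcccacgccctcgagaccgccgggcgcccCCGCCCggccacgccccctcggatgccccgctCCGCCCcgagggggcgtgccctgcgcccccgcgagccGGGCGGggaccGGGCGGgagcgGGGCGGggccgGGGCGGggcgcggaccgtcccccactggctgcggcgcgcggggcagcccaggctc
FGFR4: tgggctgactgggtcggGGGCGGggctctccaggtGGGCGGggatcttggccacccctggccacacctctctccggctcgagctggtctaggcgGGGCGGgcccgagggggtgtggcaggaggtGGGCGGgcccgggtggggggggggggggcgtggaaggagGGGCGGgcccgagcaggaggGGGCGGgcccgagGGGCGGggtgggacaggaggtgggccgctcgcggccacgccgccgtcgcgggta
FGFBP1: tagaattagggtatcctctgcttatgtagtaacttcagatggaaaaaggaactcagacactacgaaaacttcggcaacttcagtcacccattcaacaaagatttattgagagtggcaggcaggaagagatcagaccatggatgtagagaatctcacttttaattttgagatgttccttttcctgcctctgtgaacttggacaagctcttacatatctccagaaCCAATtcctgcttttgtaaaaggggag

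The windows of both receptors are rich in CpG pairs, with 40 in FGFR3 and 24 in FGFR4 against a median of 11 over 35116 promoters of the same length. FGFBP1 held 2. Windows rich in CpG pairs were also found in FGFR2 and FGF2, members without a call. FGFR2 and FRS2, which were not called, held 42 and 14 CpG pairs, the latter near the median. Each held 3 GGGCGG matches, and FGFR2 held 1 CCAAT as well. FGF2, which was not tested, held 33 CpG pairs and 3 GGGCGG matches. Whether CpG content goes with the direction of change was not tested. GGGCGG, the GC box, matched at 8 places in FGFR3 and 7 in FGFR4 and at none in FGFBP1, and 42.6% of all promoters hold a match. CCAAT matched at 1 place in FGFBP1, 27 to 23 bases before the start, and in neither receptor, with 32% of all promoters holding one. TATAAA (10.7% of all promoters), TGANTCA (6.57%), CACGTG (6.34%) and CCGGAAG (8.52%) matched in none of these 3 windows, and no matches overlapped. A match describes the letters and is not a measured binding site.

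FGFR1 showed the largest difference of the 4 receptors in R1, and it was the receptor whose level differed between the resistant lines. Its level was 80.9, 92.5 and 88.4 CPM in the parental libraries, 32.4, 36.5 and 34.8 CPM in R1, and 49.2, 50.9 and 53.0 CPM in R2. The 3 lines did not overlap, with R2 between the others. FGFR1 was 2.52-fold lower in R1 than in parental cells (log2 fold change -1.34, SE 0.0661, edgeR adjusted p = 2.69e-15). In R2 it was 1.71-fold lower (log2 fold change -0.77, SE 0.0635, edgeR adjusted p = 1.08e-10). The direct comparison gave a level 1.48-fold higher in R2 than in R1 (log2 fold change 0.56, SE 0.0686, edgeR adjusted p = 1.29e-06).

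FGFR3, whose activating mutations are known from skeletal dysplasia and bladder cancer, fell by 1.18 on the log2 scale in both resistant lines. It stood at 56.6, 56.8 and 61.0 CPM in parental libraries, 25.6, 26.5 and 25.2 CPM in R1, and 23.1, 26.8 and 27.0 CPM in R2. All parental libraries were above all resistant ones, and the resistant lines overlapped. FGFR3 was 2.26-fold lower in R1 (log2 fold change -1.18, SE 0.0723, edgeR adjusted p = 2.7e-13) and 2.27-fold lower in R2 (log2 fold change -1.18, SE 0.0723, edgeR adjusted p = 2.29e-13). Between the resistant lines the log2 difference was -0.01, with a 95% interval from -0.17 to 0.15 (R2 minus R1).

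FGFR4, the FGF19 receptor, fell less. Its level was 48.3, 53.4 and 45.6 CPM in parental libraries, 36.1, 42.3 and 40.3 CPM in R1, and 37.6, 37.3 and 39.2 CPM in R2. No resistant library reached the lowest parental one. The difference was 1.24-fold in R1 (log2 fold change -0.31, SE 0.0723, edgeR adjusted p = 0.00124) and 1.29-fold in R2 (log2 fold change -0.36, SE 0.0726, edgeR adjusted p = 0.000233). Without the first R1 library the R1 difference was -0.24 and no longer passed (edgeR adjusted p = 0.0119).

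FGFR2, the remaining receptor, had 14.6, 14.7 and 14.2 CPM in parental libraries, 15.2, 14.6 and 13.9 CPM in R1, and 14.3, 17.2 and 15.9 CPM in R2. The 3 lines overlapped. The log2 fold change was 0.01 in R1, with a 95% interval from -0.19 to 0.21, and 0.12 in R2, with an interval from -0.07 to 0.32, and neither passed the test (edgeR adjusted p = 0.974 and 0.379).

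**Figure D2:**
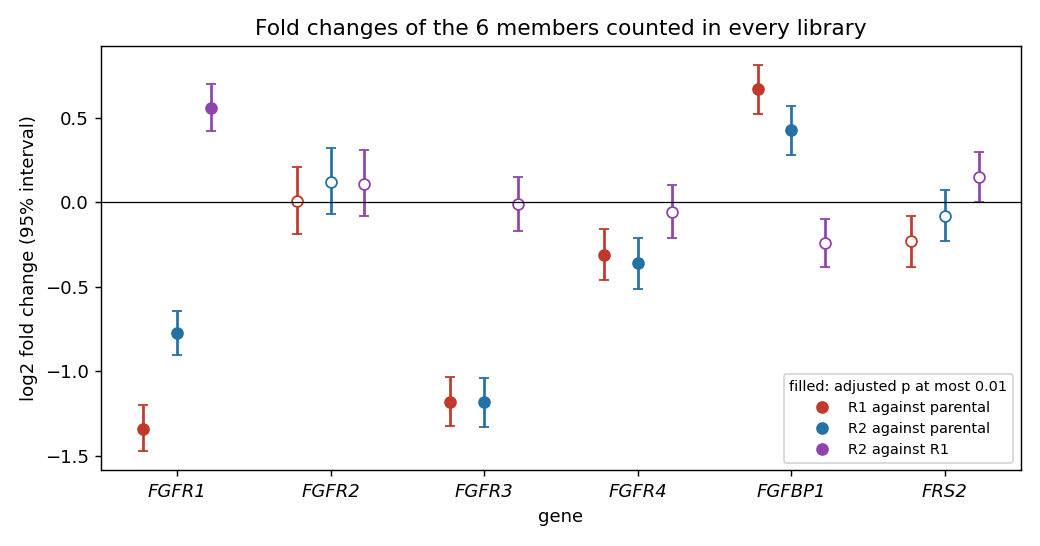
Log2 fold change (y axis) of the 6 members with counts in every library, with its 95% interval, for each resistant line set against parental cells and for R2 set against R1. Filled points passed an adjusted p of 0.01. FGFR1 is the single gene of these 6 with a filled point in all 3 comparisons, and every interval of FGFR2 spans 0.

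Levels of different genes were compared per length, in TPM, that is counts divided by the length of the merged exons of a gene and scaled to the same total in each library. In parental cells FGFR3 was the most abundant receptor at 57.4 ± 2.83 TPM (SD, n = 3), above FGFR4 at 48.8 ± 3.43, FGFR1 at 24.3 ± 1.47 and FGFR2 at 3.69 ± 0.0552 TPM, and no 2 neighbours in this order overlapped. In R1 FGFR4 led at 37.9 ± 2.62 TPM, followed by FGFR3 at 24.5 ± 0.476, FGFR1 at 9.26 ± 0.448 and FGFR2 at 3.57 ± 0.184 TPM. R2 had the same order, with FGFR4 at 37.8 ± 0.651, FGFR3 at 25.2 ± 2.06, FGFR1 at 14.2 ± 0.412 and FGFR2 at 4.01 ± 0.375 TPM. The sum over the 4 receptors was 134 ± 3.15 TPM in parental cells, 75.2 ± 2.99 in R1 and 81.2 ± 2.99 in R2, and no resistant library reached a parental one.

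Within that sum FGFR4 made up 36.4% ± 2.25 in parental cells, 50.4% ± 1.62 in R1 and 46.6% ± 1.55 in R2. FGFR3 went from 42.8% ± 2.29 to 32.6% ± 1.33 and 31.1% ± 1.48. FGFR1 took 18.1% ± 0.689 in parental cells, 12.3% ± 0.12 in R1 and 17.5% ± 0.22 in R2, and FGFR2 took 2.75%, 4.76% and 4.93%. The share of FGFR4 was higher in the resistant lines although its own level was lower, because the other abundant receptors were lower by a larger factor. The order of the receptors in a line depended on which exons were counted into the length: over the longest annotated transcript, FGFR4 led in parental cells too, at 52.7 ± 3.75 TPM, while FGFR1 at 46.6 ± 2.86 and FGFR3 at 44.8 ± 2.19 overlapped. FGFR1 then made up 30.9%, 21.0% and 28.6% of the sum in parental cells, R1 and R2, and FGFR2 4.59%, 7.94% and 7.89%. In R2 FGFR1, at 27.3 TPM, then lay above FGFR3 at 19.8 without overlap, the reverse of the order over merged exons. FGFR4 led in both resistant lines with either length.

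**Figure D3:**
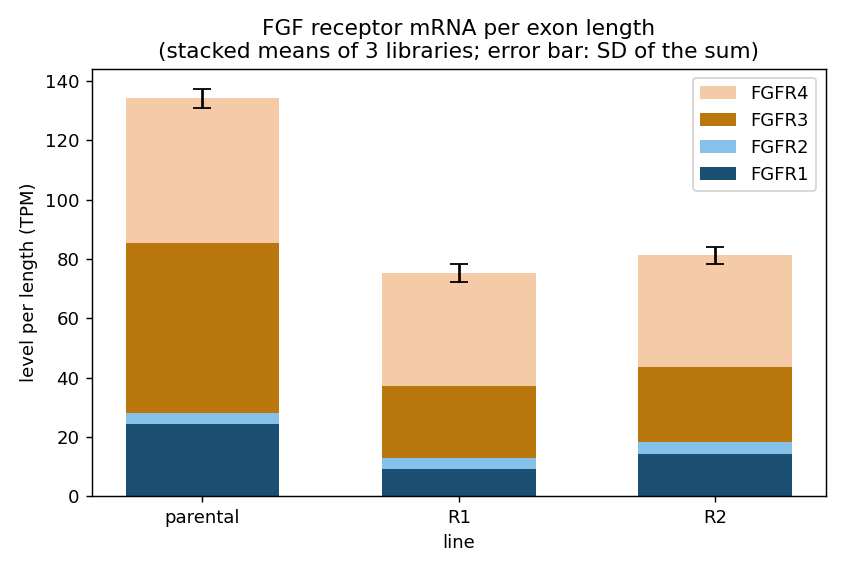
Level per exon length (TPM, y axis from 0) of FGFR1, FGFR2, FGFR3 and FGFR4, stacked as means of 3 libraries for each line, with the SD of the sum as error bar. The stack is 134 TPM high in parental cells, 75.2 in R1 and 81.2 in R2, and among the 3 abundant receptors the FGFR4 part shrinks by the smallest factor.

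FGF9, a secreted ligand with a high affinity for FGFR3, was counted almost only in parental cells. The parental libraries had 24, 13 and 19 reads (1.42, 0.939 and 0.998 CPM). The R1 libraries had 3, 0 and 0 reads, and the R2 libraries 1, 0 and 0. Every parental library was above every resistant one, and both resistant lines were at or under the level of 3 counts over a line's libraries, 0.0622 and 0.0621 CPM. The ratio of parental to R1 was 18.1 (56 against 3 counts, exact 95% counting interval 5.87 to 90.2, edgeR adjusted p = 3.35e-05). That of parental to R2 was 54.3 (56 against 1 count, interval 9.35 to 2181, edgeR adjusted p = 8.15e-06). All 3 R1 reads came from 1 library: the fitted log2 fold change of FGF9 in R1 was -4.01 with it, -7.20 without it (against a line then at 0, so no bound), and -0.63 with shrinkage. These intervals cover counting error only.

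FGF19 went the other way. It had 0 reads in all 3 parental libraries, 17, 17 and 15 in R1 (1.04, 1.07 and 0.938 CPM) and 1, 4 and 2 in R2 (0.0595, 0.248 and 0.131 CPM). The 3 lines did not overlap. Against the floor of 3 counts over the 3 parental libraries (0.0602 CPM), the R1 level of FGF19 was at least 16.9-fold higher (edgeR adjusted p = 1.72e-06). In R2 the same bound was at least 2.41-fold higher, and the test was not passed (edgeR adjusted p = 0.019). Both bounds take the reads of the resistant line as exact, so counting error in those reads could lower them. R1 exceeded R2 by a ratio of 7.01 (49 against 7 counts, exact 95% counting interval 3.16 to 18.3, edgeR adjusted p = 0.00115). Without the first R2 library that difference did not pass (edgeR adjusted p = 0.0152). Per length FGF19 was at 2.57 ± 0.168 TPM in R1, below FGFR2.

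The genes around this hormone axis were read as a list of bile acid sensing and transport genes. FXR itself (NR1H4) and the ileal bile acid transporter SLC10A2 had 0 reads in all 9 libraries, which allows no more than 0.0602 to 0.0622 CPM in a line. Of 3 tested genes of this list, none passed in R1 (27.3% of all genes did) and 1 rose in R2 (12.3% of all genes). So few genes cannot be set apart from those shares. The gene was NR0B2, a repressor that FXR induces in liver and gut (0.468 CPM in parental cells against 1.41 in R2, log2 fold change 1.54, SE 0.368, edgeR adjusted p = 0.00161). It rests on 24 parental and 68 R2 reads. KLB had 2 to 9 reads per library, with means of 0.282 CPM in parental cells, 0.372 in R1 and 0.416 in R2, and the lines overlapped. Its relative KL was at 0 in all libraries.

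FGF2 had 0 reads in all 9 libraries, so that at this depth its level lay under 0.0602 to 0.0622 CPM in each line. NUDT6, whose gene overlaps the end of FGF2 by 5.7 kb and is read from the opposite strand, had means of 8.15 CPM in parental cells, 6.76 in R1 and 7.24 in R2. The counting used strand.

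FGFBP1 was the one member that rose in both resistant lines. Its level was 32.9, 34.2 and 30.6 CPM in parental libraries, 50.1, 53.9 and 50.8 CPM in R1, and 40.4, 44.0 and 46.4 CPM in R2. The 3 lines did not overlap, and R2 lay between the others. The increase was 1.59-fold in R1 (log2 fold change 0.67, SE 0.0701, edgeR adjusted p = 1.21e-08) and 1.34-fold in R2 (log2 fold change 0.43, SE 0.0711, edgeR adjusted p = 2.41e-05). The difference between the resistant lines, -0.24 (R2 minus R1), did not pass (edgeR adjusted p = 0.0166). Per length FGFBP1 was the most abundant member in every line, at 115 ± 5.5 TPM in parental cells, 176 ± 4.91 in R1 and 154 ± 9.51 in R2.

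FRS2, the adaptor shared by the receptors, had 35.8, 37.2 and 36.3 CPM in parental libraries, 30.2, 29.6 and 33.3 CPM in R1, and 36.3, 32.6 and 34.4 CPM in R2. R1 lay below parental without overlap, and R2 overlapped both. Neither difference from parental passed the test: the log2 fold change was -0.23 in R1 (95% interval -0.38 to -0.08, edgeR adjusted p = 0.0123) and -0.08 in R2 (95% interval -0.23 to 0.07, edgeR adjusted p = 0.444). With libraries scaled to their total counts alone, FRS2 in R1 passed (log2 fold change -0.27, edgeR adjusted p = 0.00436).

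The family has 22 FGF genes, of which 18 encode secreted ligands. Over the 9 libraries 8 of the 18 secreted ligands had 0 reads and 6 were tested. Besides FGF9 and FGF19 these were FGF7, FGF17, FGF18 and FGF23. FGF18 was the most abundant of them and rose in both resistant lines, from 3.60, 2.89 and 3.31 CPM in parental libraries to 7.73, 7.91 and 7.70 CPM in R1 and 7.13, 7.62 and 7.38 CPM in R2. Both resistant lines lay above parental. The increase was 2.36-fold in R1 (log2 fold change 1.24, SE 0.142, edgeR adjusted p = 6.25e-08) and 2.24-fold in R2 (log2 fold change 1.17, SE 0.143, edgeR adjusted p = 2.06e-07).

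FGF7, the keratinocyte growth factor, fell with FGF9. It had 25, 13 and 37 reads in the parental libraries, 0, 0 and 4 in R1, and none in R2. The parental level was 18.1 times that of R1 (75 against 4 counts, exact 95% counting interval 6.8 to 68.3, edgeR adjusted p = 1.69e-05) and at least 24.2-fold higher than in R2 (edgeR adjusted p = 1.31e-06). FGF23, the phosphate hormone made by bone cells, had 9, 8 and 9 reads in the parental libraries and 0 in all 6 resistant ones, so that parental was at least 8.39-fold higher than R1 and at least 8.4-fold higher than R2 (edgeR adjusted p = 0.0003 and 0.000329). FGF7 is a product of fibroblasts in tissue, and the summed fibroblast markers given above were also highest in parental libraries. Neither fibroblast marker that was tested passed in either line. COL1A1 had an edgeR adjusted p = 0.247 in R1 and 0.08 in R2, and PDGFRB 0.224 and 0.0477. The part of such cells in these counts was not tested. The 18 secreted ligands together stood at 7.28 ± 0.734 CPM in parental cells, 9.52 ± 0.0175 in R1 and 8.22 ± 0.227 in R2. FGF18 was the largest part in each line, at 3.27 CPM in parental cells, 7.78 in R1 and 7.38 in R2.

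Of the 4 FGF homologous factors, which stay inside the cell and do not signal through FGF receptors, 2 were tested. FGF12 was 2.16-fold higher in R1 than in parental cells (6.53 against 3.04 CPM, log2 fold change 1.11, SE 0.168, edgeR adjusted p = 5.53e-06). R2, at 3.54 CPM, was 1.84-fold lower than R1 (edgeR adjusted p = 0.000443).

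Among 5 tested co-receptors and binding proteins, 1 rose and 1 fell in R1 (14.0% and 13.4% of all genes), and 1 rose in R2 (12.3% of all genes), counts near the share over all genes. FLRT3, a membrane protein that binds FGF receptors, went from 0.177, 0.433 and 0.315 CPM in parental libraries to 4.29, 3.89 and 4.19 CPM in R1 and 2.02, 1.80 and 2.81 CPM in R2. The lines did not overlap. The log2 fold change was 3.74 in R1 and 2.84 in R2 (SE 0.302 and 0.336, edgeR adjusted p = 7.48e-11 and 1.07e-07), and R2 was lower than R1 by -0.91 (edgeR adjusted p = 0.00351). FGFBP2, the neighbour and relative of FGFBP1, fell 3.92-fold in R1 (1.57 against 0.395 CPM, log2 fold change -1.97, SE 0.376, edgeR adjusted p = 0.000124), opposite to FGFBP1, and stood at 1.06 CPM in R2 with no call (edgeR adjusted p = 0.184). FGFRL1, the receptor-like protein that lacks the kinase, was at 46.7, 45.9 and 45.6 CPM in the 3 lines, with a log2 95% interval from -0.18 to 0.14 in R1 and from -0.19 to 0.13 in R2.

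Heparan sulfate proteoglycans and their enzymes, which hold FGFs at the cell surface, were tested as 17 genes. In R1 7 rose and 3 fell, where 14.0% of all genes rose and 13.4% fell. In R2 5 rose and 2 fell, where 12.3% of all genes rose and 11.6% fell, so that the lower calls were near the share over all genes. Of the syndecans, SDC4 rose, SDC2 fell, and SDC1 (-0.14 and -0.06) and SDC3 (0.10 and 0.09) passed in neither line. SDC4 went from 72.4, 72.4 and 69.3 CPM in parental libraries to 192, 201 and 183 CPM in R1 and 134, 141 and 130 CPM in R2, with no overlap between lines (log2 fold change 1.43 and 0.92, edgeR adjusted p = 5.21e-18 and 8.33e-14). SDC2 fell from 30.9 CPM to 11.4 in R1 and 15.0 in R2 (log2 fold change -1.44 and -1.05, edgeR adjusted p = 4.61e-13 and 1.35e-10). SULF2, a sulfatase that trims heparan sulfate, rose in R1 to 5.97 CPM from 2.47 (log2 fold change 1.27, SE 0.189, edgeR adjusted p = 4.15e-06). In R2 it was at 2.52 CPM, lower than in R1 by -1.25 on the log2 scale (edgeR adjusted p = 3.18e-05). GPC5 had 24 reads in parental libraries and 0 in the resistant ones, which puts R1 at least 7.74-fold and R2 at least 7.75-fold under parental cells.

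Downstream, none of 9 tested adaptors and transducers rose, and 3 fell in each resistant line, where 13.4% of all genes fell in R1 and 11.6% in R2. As 14.0% and 12.3% of all genes rose, none of 9 is near that share. The 3 genes were the RAS exchange factors SOS1 and SOS2 and the docking protein GAB1. GAB1 went from 24.5 CPM in parental cells to 12.4 in R1 and 13.6 in R2 (log2 fold change -0.99 and -0.84, SE 0.0966 and 0.0953, edgeR adjusted p = 3.46e-09 and 4.63e-08). SOS1 went from 96.7 CPM to 61.0 and 67.5 (log2 fold change -0.67 and -0.52, SE 0.0668 and 0.0662, edgeR adjusted p = 5.43e-09 and 3.93e-07). The median of the list was -0.18 in R1 and 0.03 in R2.

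Of 11 feedback and target genes tested, 7 rose, none fell and 4 did not pass in R1 (14.0% of all genes rose), with a median log2 fold change of 0.36. In R2 6 rose, none fell and 5 did not pass (12.3% of all genes rose), with a median of 0.44. In each line 4 of the 11 had a value below 0. The median over all genes tested was -0.01 and 0.00. DUSP6 stood at 27.0, 26.5 and 26.8 CPM in parental libraries, 90.0, 90.3 and 93.8 CPM in R1 and 78.4, 77.8 and 79.1 CPM in R2. The 3 lines were far apart relative to their own spread, and DUSP6 was 3.41-fold higher in R1 and 2.93-fold higher in R2 (log2 fold change 1.77 and 1.55, SE 0.0591 and 0.0595, edgeR adjusted p = 5.05e-19 and 1.03e-17).

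SPRY4, a Sprouty inhibitor of RAS-MAPK signalling, was at 27.2, 29.3 and 25.1 CPM in parental libraries, 50.1, 50.5 and 48.2 CPM in R1 and 68.6, 66.5 and 68.6 CPM in R2. Here R2 was the highest (log2 fold change against parental 0.87 in R1 and 1.33 in R2, and 0.45 between the resistant lines with an edgeR adjusted p = 8.07e-06). SPRED1 had the same order of lines, at 43.5, 78.8 and 98.6 CPM (log2 fold change 0.85 and 1.18, edgeR adjusted p = 1.44e-10 and 1.42e-13). IL17RD went from 14.2 CPM to 33.6 in R1 and 36.4 in R2 (log2 fold change 1.24 and 1.35, edgeR adjusted p = 3.5e-12 and 4.33e-13). SPRY1 and SPRY2 did not pass in either line, with log2 fold changes of -0.08 and -0.20 in R1 and -0.22 and -0.05 in R2. These genes respond to RAS-MAPK activity from any receptor or from RAS itself, and which input moved with them was not tested.

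**Figure D4:**
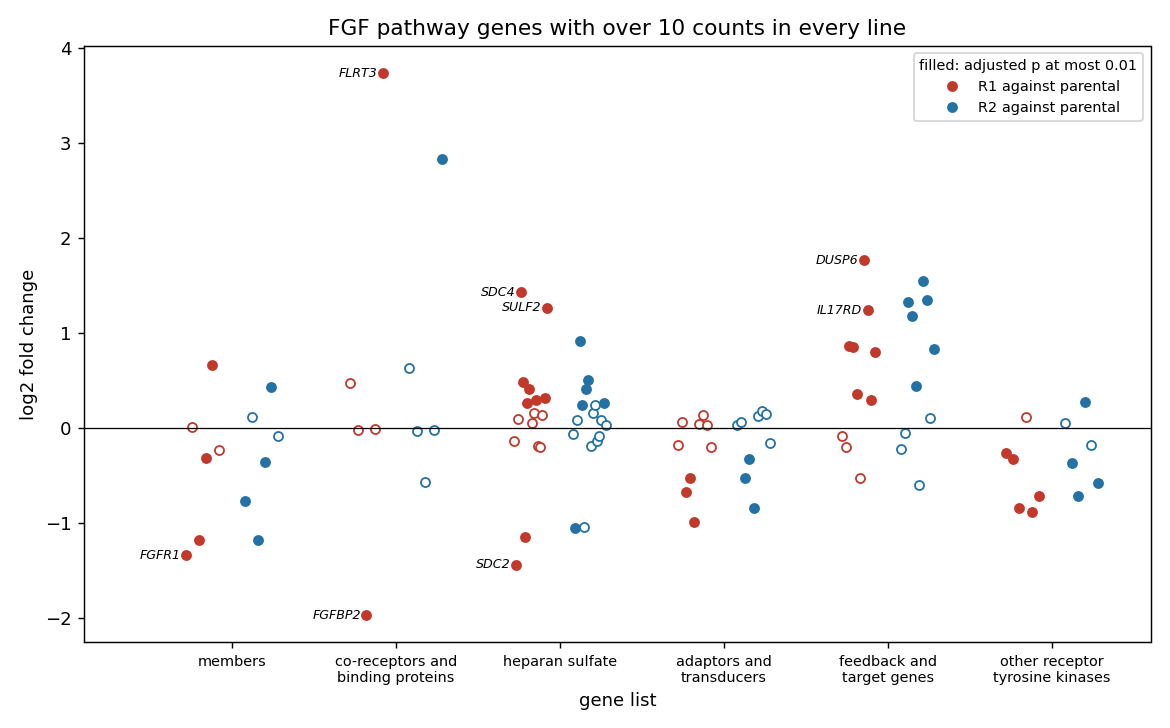
Log2 fold change (y axis) of pathway genes with over 10 counts in each line, by list (x axis), with parental cells as the baseline of both resistant lines, each point 1 gene. Filled points passed an adjusted p of 0.01, and genes with a R1 change of at least 1.2 in size are named. In the feedback and target genes every filled point is above 0, and in the adaptors and transducers every filled point is below 0.

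The epithelial splicing regulators ESRP1 and ESRP2, which favour the epithelial (IIIb) form of FGFR2, did not pass in any comparison, with log2 fold changes of -0.14 and -0.08 in R1 and -0.14 for both in R2. Gene counts do not separate the IIIb and IIIc forms of the receptors. Among 6 other receptor tyrosine kinases, 5 were lower in R1 (13.4% of all genes), with a median log2 fold change of -0.52. In R2 3 were lower (11.6% of all genes) and 1 was higher (12.3% of all genes), with a median of -0.27. ERBB3 fell from 406 CPM to 226 and 249 (log2 fold change -0.84 and -0.71), INSR fell by 0.71 and 0.58, and IGF1R fell by 0.88 in R1 but did not pass in R2 (-0.18, edgeR adjusted p = 0.0675). EGFR, the target of cetuximab, was at 277, 230 and 286 CPM in the 3 lines, lower than parental in R1 (log2 fold change -0.26, edgeR adjusted p = 4.41e-05). These are RNA levels. For protein, the study reports no change of total or surface HER3, the product of ERBB3, and no loss of total EGFR in the resistant lines.

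For each member with a mean of at least 10 counts, the genes with the most similar course over the 9 libraries were ranked among 13412 genes by the root mean square difference of centred log2 CPM. For FGFR1 these were LTBP4, LFNG and DPEP1, at 0.0821, 0.0872 and 0.107. LTBP4 fell by 1.24 in R1 and 0.86 in R2 on the log2 scale. For FGFR3 they were TRPM5, PELI1 and ACSL5, at 0.0739, 0.0788 and 0.0822, and for FGFR4 RNF41, CNPPD1 and KIAA1522, at 0.0363 to 0.0374. The closest genes to FGFBP1 were PRDX5, ALDH3A1 and EHD4, at 0.0299, 0.0344 and 0.0422, with increases of 0.64, 0.70 and 0.71 in R1. FGFR2 was nearest to HEATR3, TTC5 and MTMR1, and FRS2 to BRD1, TCEAL1 and GET1. The libraries share 3 lines, so that such a course amounts to little more than 3 levels.

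Genes next to a member on the chromosome were looked at to see how far a change extended (RefSeq positions, GRCh38.p14, 3 tested protein-coding genes on each side). FGFR3 fell by 1.18 in both lines, whereas its next gene LETM1, 2.6 kb away on chromosome 4, rose by 0.33 in R1 and 0.28 in R2 (edgeR adjusted p = 2.07e-06 and 1.75e-05), and TACC3, 48.1 kb away on the other side, was at 0.03 in both. None of the 6 neighbours of FGFR3 passed the test as lower. Around FGFR4 on chromosome 5, NSD1, 33.7 kb away, fell by 0.36 in R1 and 0.27 in R2, and ZNF346, 5.7 kb away, did not pass (0.03 and -0.13). FGF19 lies on chromosome 11 from 69698238 to 69704022. Of its neighbours, MYEOV, 401 kb away, rose by 2.20 and 2.37 and the cyclin gene CCND1, 43.8 kb away, by 0.44 and 0.51 (edgeR adjusted p = 1.16e-11 and 6.83e-13), while LTO1, between CCND1 and FGF19, did not pass (0.15 and 0.28). ANO1, 262 kb to the other side, fell by 1.11 in R2 and was at 0.12 in R1.

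FGF9 lies on chromosome 13 from 21671073 to 21704498, and none of its 6 neighbours passed as lower in either line, the nearest being MICU2 at 66.9 kb (0.06 and 0.04). FRS2 lies on chromosome 12 from 69470388 to 69579793, and its nearest neighbour CCT2, 5.7 kb away, rose by 0.16 in R1 (edgeR adjusted p = 0.00286). FGFR1 lies on chromosome 8 from 38411143 to 38468635. Its neighbour LETM2, 1.6 kb away, did not pass (0.33 and 0.20), and NSD3, 28.9 kb away, fell by 0.24 in R1 (edgeR adjusted p = 0.000886) and did not pass in R2 (0.00). The 6 neighbours of FGFR1 ranged from -0.44 to 0.33 in R1 and from -0.29 to 0.58 in R2, against -1.34 and -0.77 for FGFR1 itself. DDHD2, 137 kb away, was lower in both lines (-0.44 and -0.29). Between the resistant lines, where FGFR1 was higher in R2 by 0.56, 3 of the 6 neighbours were also called higher. These were NSD3 (0.24), TACC1 (0.38) and PLEKHA2 (0.40). In that comparison 7.16% of all genes were called in either direction, and 648 of 19102 were called higher. Against parental cells TACC1 and PLEKHA2 rose in R2 (0.38 and 0.58, edgeR adjusted p = 9.47e-09 and 5.15e-09). They did not pass in R1 (0.00 and 0.18), whereas FGFR1 was lower in both lines. Whether the differences of FGFR1 and its neighbours share a cause was not tested.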

How the data were processed

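Bulk RNA of 9 libraries (3 per line) had been prepared with a stranded mRNA kit and sequenced as read pairs. The authors aligned reads to hg38 with STAR and counted genes with HTSeq 0.9.1 on the reverse strand. The gene annotation is not given in the sources used here. The deposited values are raw read counts per gene symbol, 1 file per library, with 13737416 to 18725014 counts each. The 19102 genes whose counts summed to 10 or more were fitted together by line in edgeR 4.0.16 (R 4.3.3, TMM, quasi-likelihood test), and p-values were adjusted after Benjamini and Hochberg over all genes tested. A gene is changed when its adjusted p does not exceed 0.01, and a DEG when its log2 fold change also reaches 1.5 in size. CPM were scaled by TMM. TPM used exon lengths of GENCODE for 86.3% of the genes tested, all list genes among them. A group at 0 was set to a floor of 3 counts over its 3 libraries, and exact 95% intervals of count ratios cover counting error. Folds given as at least use that floor and take the reads of the higher group as exact, so they are not 95% limits. The script was tested on simulated data.

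The members and gene lists were chosen with earlier results of these data known. Named were all members and, from each other list, changed genes whose log2 fold change reached 1 in size, at most 4 per list and comparison by size, or the 2 largest where there were none. Genes named beyond this (KL, KLB, NR1H4, SLC10A2, FGFRL1, SOS2, SDC1, SDC3, SPRY1, SPRY2, SPRY4 and SPRED1 in R1, the ESRP genes, EGFR and the markers) were picked for their known role after values were seen. Sequences are from RefSeq, whose promoter table matched 6 of 9 members. Alternatives were DESeq2 1.42.0 with and without shrinkage, other scalings, filters and thresholds, a replicate block, 6-library fits, each library left out in turn, and another exon length.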

Additional observations from a re-analysis of the deposited data

Results flagged for a closer look

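FGFR1 and FGF19 differed between the resistant lines by a direct test (edgeR quasi-likelihood test). FGFR1 was higher in R2 by 0.56 on the log2 scale (edgeR adjusted p = 1.29e-06), with all 3 R2 libraries above all 3 of R1, and it kept this direction and its call under each alternative run. FGF19 was lower in R2, with a fitted log2 fold change of -2.74 (edgeR adjusted p = 0.00115) that rests on 49 against 7 reads.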

How the results depend on the processing

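Of 423 member values recomputed under the alternatives, 404 kept their direction and their side of the threshold, 2 lost and 9 gained a call, and 8 changed sign. FGFR1, FGFR3, FGF9 and FGFBP1 kept their calls against parental cells under each alternative that could test them. The sign changes were of FGFR2 in R1 (-0.03 with total counts only, and -0.02 to 0.04 over the libraries left out in turn), FGFR3 between the resistant lines (0.01 with total counts only, and -0.05 to 0.06 over the libraries left out), FGF9 between them (-3.18 to 1.88 over the libraries left out, above 0 without the first R1 library), and FGF19 in R2 (-0.23 with DESeq2's shrinkage). None of these passed the test in either form. The DEG counts of 2, 1 and 1 (R1, R2, and between them) became 0, 0 and 0 with at least 10 counts in every library, a filter that removes FGF9 and FGF19, and 0, 0 and 0 with shrinkage. They became 4 and 2 against parental with a log2 threshold of 1, and 2 for R2 with the p threshold at 0.05. Between the resistant lines 1 member was called with that count filter and 1 with shrinkage, where DESeq2 gave FGF19 no adjusted p. Leaving out each library in turn gave 5 to 7 called members in R1, 5 in R2, and 1 to 3 with 0 to 1 DEGs between the resistant lines, the lower values without the first R2 library. Over all genes, those called between the resistant lines fell from 1368 to 743, 772 and 860 without the first and second R2 and the third R1 library, and DEGs against parental fell from 982 and 921 to 302 and 297 with the count filter and 258 and 276 with shrinkage. DEGs between the resistant lines went from 146 to 34 with that filter, 4 with shrinkage, 270 with the log2 threshold of 1 and 223 with the p threshold of 0.05, where 2478 genes were called. Lengths of the longest transcript gave receptor sums of 151, 84.6 and 95.5 TPM. Same-numbered libraries had correlations of deviations from -0.106 to 0.274, and differently numbered ones from -0.265 to 0.191, so pairing by number was not settled. A replicate block called 7, 5 and 3 members, adding FRS2 in R1 and FGFBP1 between the resistant lines. Over all genes the block called 5841 in R1 and 5197 in R2, against 5222 and 4554 without it. FGF9, FGF19, FGF7, FGF23 and GPC5 rest on few reads, which limits their precision.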
